A study of Ovis aries with 16 samples.

Results

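CYP51A1 (ENSOARG00000017477) was followed through the testis RNA of adult Merino male sheep on a high or a low diet. It was 1 of 25197 genes with deposited values and 1 of 11148 that passed the filter of CPM above 5 in at least 8 libraries, where CPM is a gene's read count scaled to the total of its library. It was picked by name, but its symbol came from the study's lists of genes called different between these diets on these libraries, so the diet tests below are not independent of that call. The study asked how nutrition changes testicular gene expression in mature males. The 8 well-fed sheep were fed to gain 10% of body mass within 65 days, and the 8 underfed sheep to lose as much. Each sheep gave 1 library of polyadenylated RNA, made from pieces of the top, middle and bottom of the right testis mixed together. Sheep in both groups were intact, sexually mature males with no genetic alteration or drug treatment named in the sources used here.

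CYP51A1 encodes lanosterol demethylase, a cytochrome P450 enzyme of the endoplasmic reticulum that removes a methyl group from lanosterol on the way to cholesterol. Cells make sterols from acetyl units through mevalonate, isoprenoid diphosphates, squalene and lanosterol. In most tissues the sterol regulatory element binding proteins (SREBPs) raise transcription of these enzymes when membrane sterol is low. In the testis the enzyme is also known from germ cells, mainly after meiosis has begun, where its products include meiosis-activating sterols and where the regulator CREM drives transcription independently of SREBPs.

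Libraries held 9552149 to 18230076 reads on genes in well-fed sheep and 7646547 to 14690953 in underfed sheep. CYP51A1 received between 1052 and 7653 of these reads per library, so counting error was small. The exact Poisson interval at 95% was 117 to 132 CPM in the sheep with the fewest CYP51A1 reads and 410 to 429 CPM in the sheep with the most, and it covers counting error only. Germ cell, Sertoli cell and smooth muscle markers were present in each library, as the label of testis tissue calls for. High diet sheep 8 stood apart by its TMM factor, a scaling for the makeup of a library, which was 0.739 where the other 15 sheep lay between 0.859 and 1.13. Low diet sheep 6 and 7 stood apart by several germ cell genes, with 6 of 11 measured markers (SYCP1, SYCP2, SPO11, MEIOB, HORMAD1 and ZPBP) lower in both than in any other sheep, beside 9.94% of all genes tested. For example SYCP1, a protein of the synaptonemal complex, was at 14.7 and 14.1 CPM in these 2 sheep and at 69.6 CPM or more in the other 14. All 11 markers had their symbols from the study's lists of genes called different between these diets. Genes very low in these 2 sheep could pass that call more readily, so the 9.94% is not a like background. LDHC, at 309 and 305 CPM, was within the range of the other underfed sheep. Results on CYP51A1 are therefore also given without these sheep. The same-diet libraries differed from each other by far more than sampling noise.

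Underfed sheep expressed CYP51A1 at a lower level than well-fed sheep. As deposited, it averaged 272 ± 83.4 CPM (SD, n = 8) in well-fed sheep and 188 ± 49.9 CPM (SD, n = 8) in underfed sheep, a ratio of means of 1.45. After scaling by the TMM factors the averages were 299 ± 130 and 178 ± 51.7 CPM (SD, n = 8 each), a ratio of 1.68. On the log2(CPM + 1) scale used for the test, the underfed mean was lower by a log2 difference of -0.69 (SE 0.24, 95% interval -1.20 to -0.18), which is 1.62-fold higher in well-fed sheep (1.13 to 2.30). Testis pieces hold many cell types, and fewer cells of a type and less RNA per cell cannot be told apart in these data.

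The scaled level of CYP51A1 in well-fed sheep 1 to 8 was 304, 258, 186, 203, 379, 320, 171 and 568 CPM. In underfed sheep 1 to 8 it was 260, 178, 165, 111, 216, 121, 221 and 150 CPM. The diets overlapped: 4 well-fed sheep lay above every underfed sheep, 4 underfed sheep lay below every well-fed sheep, and the other 8 fell in a shared range. In 53 of the 64 possible pairs of a well-fed and an underfed sheep, the well-fed sheep had the higher level. The highest well-fed sheep had 3.31-fold the level of the lowest, and 2.21-fold without high diet sheep 8, where the underfed group spanned 2.34-fold.

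**Figure D1:**
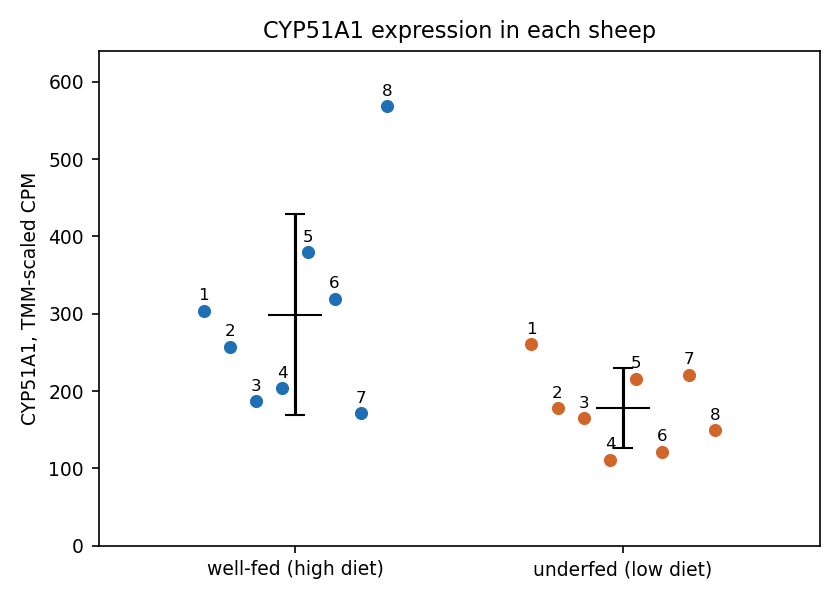
CYP51A1 in each of 16 sheep as TMM-scaled CPM, by diet. Points are sheep with their replicate numbers, and bars give the mean and SD (299 ± 130 in well-fed and 178 ± 51.7 CPM in underfed sheep). The groups overlap between 171 and 260 CPM, and high diet sheep 8 is the highest at 568 CPM.

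The difference passed the test across all genes, with an adjusted p of 0.0726 (limma, Benjamini-Hochberg, threshold 0.1), and 21.5% of the 11148 genes tested passed it in one direction or the other. It ranked 1612 by p, with 10.6% of genes lower and 10.9% higher in underfed sheep. An exact permutation test of CYP51A1 alone over all assignments of the sheep to the diets gave a two-sided p of 0.0159, where the smallest possible p was 0.000155. It uses the values on which the study had already called the gene, so it adds no independent evidence. Because the ratio of mean CPM as deposited was 1.45, CYP51A1 did not meet the second criterion of the study's methods, a ratio above 1.5, which 16.2% of genes met together with the first, 5.42% of them lower and 10.8% higher in underfed sheep. The paper also measured CYP51A1 by RT-qPCR and described the result as matching its sequencing, which was not examined here. Without high diet sheep 8 the log2 difference was -0.55 (adjusted p = 0.143, limma with Benjamini-Hochberg), and without low diet sheep 6 and 7 it was -0.67 (adjusted p = 0.144). The call was lost on leaving out any one of high diet sheep 1, 5, 6 and 8 or low diet sheep 3, 4, 6 and 8, with log2 differences from -0.69 to -0.55 and adjusted p from 0.101 to 0.149 by limma.

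Gene symbols were taken from the study's own lists of genes that it called different between these diets, which gave a symbol to 1763 identifiers. Counts over named genes are therefore not independent evidence of a direction: 90.3% of the genes with a symbol passed the diet test, 40.6% of them lower and 49.7% higher in underfed sheep. Genes of a pathway without a symbol were not analysed here.

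Of 23 listed enzymes of sterol synthesis, 4 had an identifier, CYP51A1 among them. All 4 were lower in underfed sheep by the diet test, beside 10.6% of all genes and 40.6% of genes with a symbol. The median log2 difference of the 4, CYP51A1 included, was -0.80, beside 0.01 over all genes tested. Genes named through a call between these diets tend to lie away from 0, so the median over all genes is not a like background. By the same rule as CYP51A1, the others were IDI1, GGPS1 and MSMO1. IDI1 interconverts the isoprenoid diphosphates that supply the pathway, and its log2 difference was -0.90 (SE 0.29, adjusted p = 0.0571, limma with Benjamini-Hochberg). GGPS1 diverts isoprenoids into geranylgeranyl diphosphate, a lipid anchor of proteins, and differed by -0.69 on the log2 scale (SE 0.23, adjusted p = 0.0647, limma). MSMO1, the methylsterol monooxygenase that acts after CYP51A1 on its sterol products, differed most in this list, by -1.26 on the log2 scale (SE 0.38, adjusted p = 0.0485, limma). With IDI1 and MSMO1, 2 of the 4 also met the ratio of means above 1.5. Without high diet sheep 8, and likewise without low diet sheep 6 and 7, 0 of the 4 passed limma at the adjusted threshold and 4 of 4 had an unadjusted p under 0.05. The count tests of edgeR and DESeq2, run on all 16 sheep, called all 4. The study had already called these genes on the same libraries, so this adds no independent evidence.

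The scaled level of MSMO1 in well-fed sheep ran from 20.5 to 83.6 CPM with a median of 39.1. In underfed sheep 1 to 8 it was 33.7, 29.2, 28.5, 19.0, 19.0, 4.89, 4.74 and 11.6 CPM, so that sheep 6 and 7 were the lowest of all 16. GGPS1 was also lowest in these sheep, at 21.8 and 21.6 CPM against 40.2 CPM or more in the other 14. So was IDI1, at 25.6 and 39.6 CPM against 64.8 CPM or more. CYP51A1 did not share this drop in sheep 7, which at 221 CPM had the second highest level of the underfed group, and in sheep 6 it was at 121 CPM, above sheep 4. The pair was noticed after the values were seen.

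Across the 16 sheep CYP51A1 rose and fell with the 3 other enzymes. Pearson's r was 0.74 with IDI1 (Spearman's rho 0.71), 0.73 with GGPS1 (rho 0.81) and 0.71 with MSMO1 (rho 0.77). Permutation p was 0.00134, 0.00137 and 0.00255 for r and 0.00272, 0.00027 and 0.00083 for rho. Over 7 relations the adjusted p of r was 0.00298 or less for these 3 genes, and that of rho 0.00349 or less. With the diet means removed r was 0.59, 0.59 and 0.54. Dropping the 2 sheep most extreme for the other gene, by distance from its median, gave 0.56 for IDI1, 0.95 for GGPS1 and 0.88 for MSMO1. For GGPS1 and MSMO1 these were low diet sheep 6 and 7. In well-fed sheep r was 0.85, 0.97 and 0.98, and in underfed sheep, where sheep 6 and 7 fell off the line, it was 0.38, 0.31 and 0.26.

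These correlations have to be read against a testis transcriptome that varied mostly along 1 axis. The first principal component of the other genes held 59.6% of their variance, and CYP51A1 had r = 0.97 with it (0.95 with the diet means removed). Across all other genes, the quartiles of r with CYP51A1 were -0.73 and 0.65, and 12.7% of genes had an r beyond 0.9 in size. IDI1, GGPS1 and MSMO1 therefore did not stand out, since 81.4%, 81.0% and 78.9% of genes had a lower r than these 3.

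SREBF1, which encodes the regulator SREBP1, mirrored CYP51A1. It was at 4.2, 5.2, 13, 13, 2.5, 4.0, 21.4 and 0.89 CPM in well-fed sheep 1 to 8 and at 9.5, 14.8, 17.4, 29.9, 13.6, 35.1, 12.7 and 25.7 CPM in underfed sheep 1 to 8. The sheep with the most CYP51A1, high diet sheep 8, had the least SREBF1, with 12 reads, its fewest in any library. SREBF1 was higher in underfed sheep by a log2 difference of 1.49 (SE 0.43, adjusted p = 0.0439, limma with Benjamini-Hochberg), and this was 1.42 without low diet sheep 6 and 7 (adjusted p = 0.121, limma). Its r with CYP51A1 was -0.98 (rho -0.98, permutation p = 1e-05 for each, the smallest that 100000 resamples can give, adjusted p = 7e-05). The value was -0.97 with the diet means removed, -0.98 within well-fed and -0.97 within underfed sheep, and -0.95 with the 2 sheep most extreme for SREBF1 dropped. Of the 11147 other genes, 4 had a lower r. SREBF1 was the 1 measured gene of 13 listed for sterol regulation, and SREBF2, the form best known for sterol synthesis, was not analysed here.

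**Figure D2:**
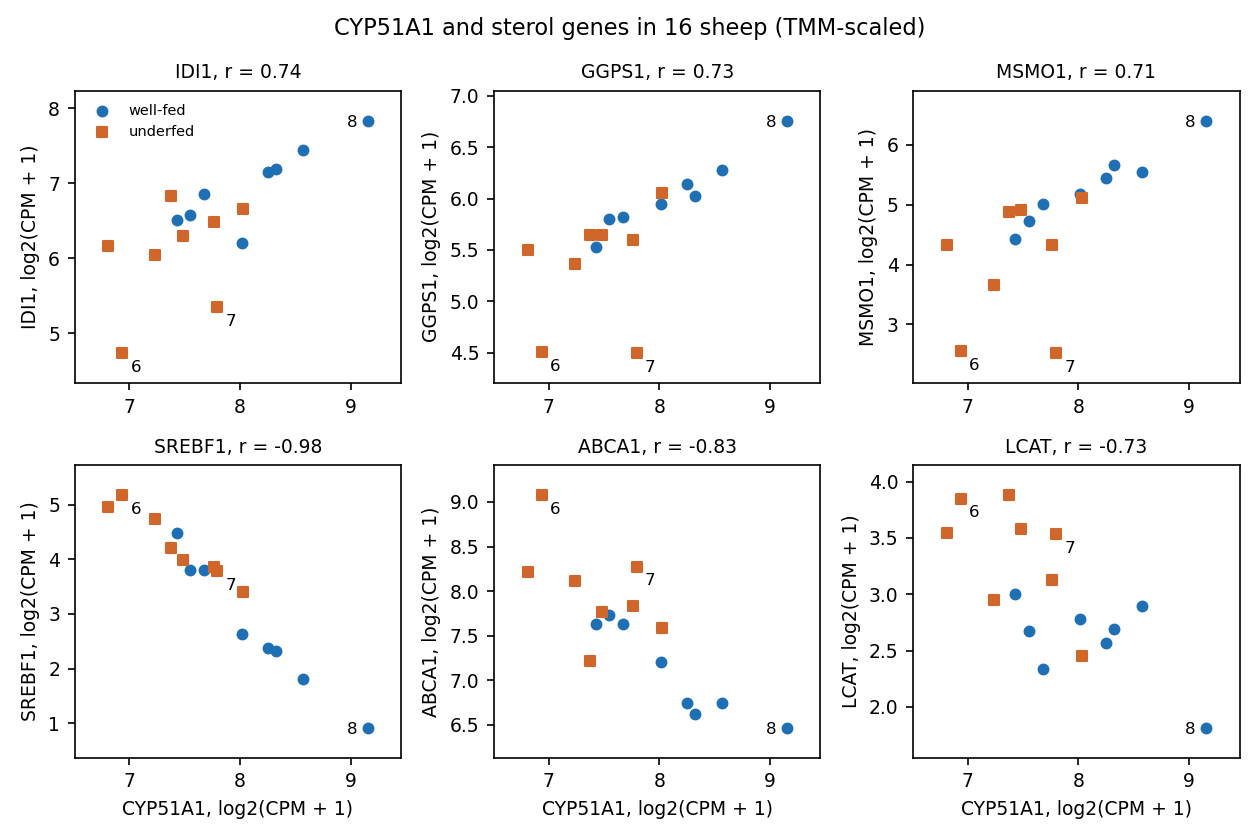
Levels of 6 sterol genes against CYP51A1 in 16 sheep, both as log2(TMM-scaled CPM + 1), with Pearson's r above each panel. Circles are well-fed and squares underfed sheep, and the numbers mark high diet sheep 8 and low diet sheep 6 and 7. SREBF1 falls along a line with CYP51A1 (r = -0.98), while low diet sheep 6 and 7 lie below the other points for IDI1, GGPS1 and MSMO1.

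The 3 measured genes of 10 listed for sterol transport were all higher in underfed sheep, again among genes chosen by the study on these samples. By the same test 10.9% of all genes and 49.7% of genes with a symbol were higher. ABCA1 exports cholesterol from cells to lipoproteins, and its log2 difference was 0.91 (adjusted p = 0.0408, limma with Benjamini-Hochberg). APOE, a lipoprotein component, differed by 0.96 (adjusted p = 0.0815) and LCAT, which esterifies cholesterol on lipoproteins, by 0.77 (adjusted p = 0.0457) by the same limma test. Each ran against CYP51A1 across sheep, with r = -0.83 for ABCA1, -0.66 for APOE and -0.73 for LCAT (rho -0.76, -0.71 and -0.69). Permutation p was 8e-05, 0.00554 and 0.00118 for r and 0.0011, 0.00299 and 0.00457 for rho. The adjusted p over 7 relations was 0.00554 or less for r and 0.00457 or less for rho. With the diet means removed r was -0.73, -0.49 and -0.56, of which that of APOE missed the threshold of 0.05 (permutation p = 0.0546). Among all genes, 14.8%, 29.3% and 24.4% had a lower r with CYP51A1 than these 3. With the 2 sheep most extreme for each gene dropped, r was -0.77, -0.59 and -0.61. Without low diet sheep 6 and 7, 0 of the 3 passed limma at the adjusted threshold and all 3 had an unadjusted p under 0.05. edgeR and DESeq2 called all 3 on 16 sheep, the libraries on which the study had already called them.

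Other cytochrome P450 genes did not share one direction. Of 18 listed, 4 had an identifier, CYP51A1 among them. All 4 passed the diet test, beside 21.5% of all genes and 90.3% of genes with a symbol. CYP39A1, which hydroxylates an oxysterol on the route to bile acids, was lower in underfed sheep like CYP51A1 (log2 difference -0.94, adjusted p = 0.0468, limma with Benjamini-Hochberg). CYP26B1, which breaks down retinoic acid, was higher (1.11, adjusted p = 0.0202, limma), as was CYP1B1, an enzyme of oestrogen and foreign compound metabolism (0.83, adjusted p = 0.0353, limma). The electron donors of these enzymes, among 7 listed genes, were not analysed here. Of 8 genes listed for CREM and its partners, TBPL1 was measured. It encodes a relative of the TATA box binding protein that is needed in spermatids, and its log2 difference was -0.91 (adjusted p = 0.0796, limma). In low diet sheep 6 and 7 TBPL1 was at 74.7 and 55.3 CPM, where the other 14 sheep had 231 CPM or more. Without these sheep the log2 difference of TBPL1 was -0.40 (adjusted p = 0.155, limma).

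**Figure D3:**
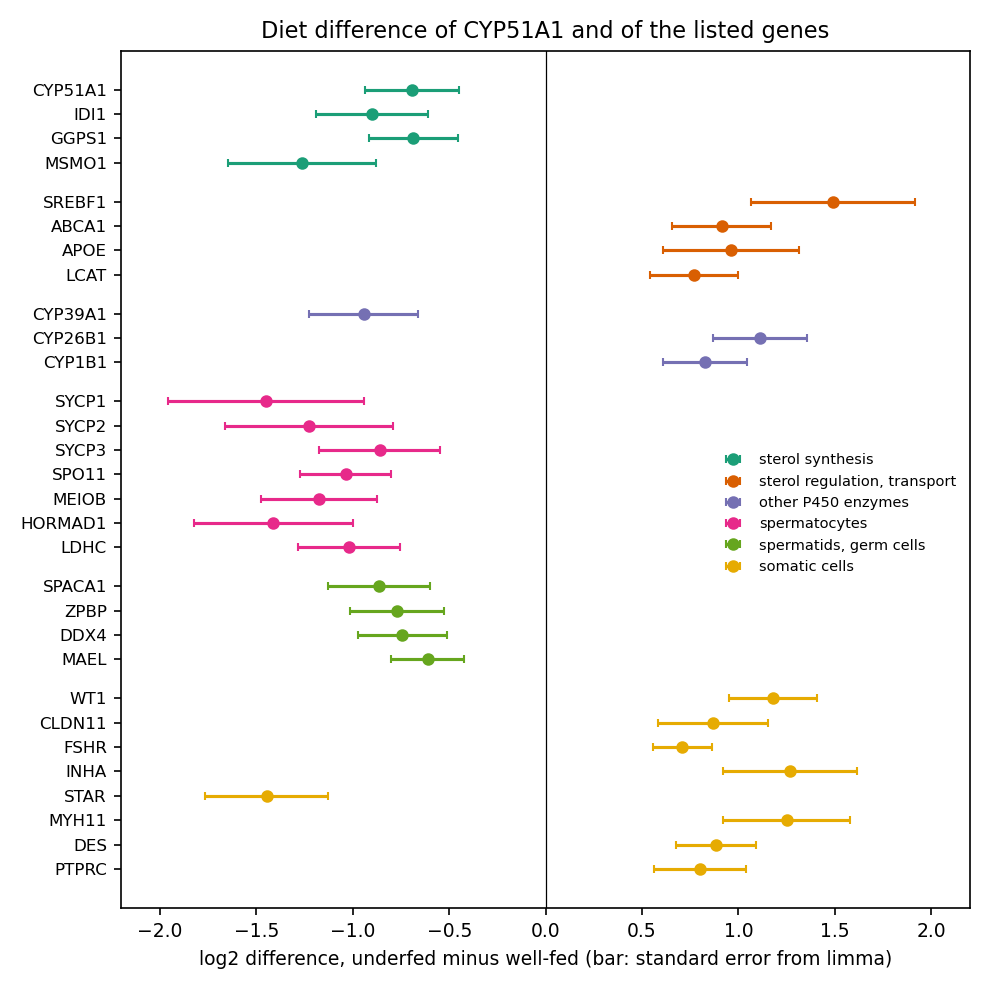
Log2 differences in TMM-scaled expression, underfed minus well-fed, of CYP51A1 and of measured genes from the lists on sterols, P450 enzymes and cell types, 8 sheep per diet. Points are limma estimates and bars their standard errors. CYP51A1 (-0.69) lies on the side of the germ cell genes and opposite to SREBF1 (1.49), the transport genes and the Sertoli cell genes.

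Markers of the cells of the testis moved with the diets beside CYP51A1. Of the listed markers, 7 of 13 for spermatocytes and 2 of 15 for spermatids had an identifier. So had 2 of 4 for germ cells in general and 4 of 10 for Sertoli cells. Among those with an identifier, 7 of 7, 2 of 2 and 2 of 2 of the germ cell lists were lower in underfed sheep. The 4 of 4 for Sertoli cells were higher, beside 10.6% of all genes lower and 10.9% higher. Of genes with a symbol, as all these markers are, 90.3% passed, with 40.6% lower and 49.7% higher. Without high diet sheep 8 limma called 4, 0, 0 and 4 of the spermatocyte, spermatid, general germ cell and Sertoli markers. Without low diet sheep 6 and 7 it called 2, 0, 0 and 2. Each spermatid and general germ cell gene had an unadjusted p under 0.05 in both fits (2 of 2 each). On 16 sheep edgeR and DESeq2 called all these measured markers, on the libraries where the study had already called them. Their summed scaled level ran from 1181 to 4596 CPM in well-fed and 476 to 1729 CPM in underfed sheep for spermatocytes. For spermatids it ran from 374 to 803 and 162 to 520 CPM. For germ cells in general it ran from 954 to 1980 and 565 to 1416 CPM. For Sertoli cells it ran from 131 to 159 and 183 to 521 CPM. In low diet sheep 7 the Sertoli gene CLDN11 alone was at 370 CPM, where the other underfed sheep had 55.2 to 162 CPM. Both smooth muscle and peritubular markers (MYH11 and DES) and the 1 leukocyte marker (PTPRC) were higher in underfed sheep, and the 1 Leydig cell marker (STAR) was lower. Markers of spermatogonia and endothelium were not analysed here, and none of the markers measured was at 0 in any library. All these markers too came from the study's lists. The part of cell makeup in the CYP51A1 difference was not tested.

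A ratio of 2 genes within 1 library does not depend on the library total or the TMM factor, so CYP51A1 was set against each sterol and germ cell gene in this way. These 18 ratios were chosen after the values were seen. The ratio to LDHC, the lactate dehydrogenase of spermatocytes and later germ cells, was higher in underfed sheep by 0.32 on the log2 scale (-1.05 ± 0.28 against -1.37 ± 0.10, SD, n = 8 each). The exact permutation p was 0.00357 (adjusted 0.0322 over 18 ratios), and 5 underfed sheep lay above every well-fed sheep. It was 0.28 without low diet sheep 6 and 7 (exact permutation p = 0.00233). CYP51A1 was lower in underfed sheep by less than LDHC was, whose own log2 difference was -1.02 (adjusted p = 0.0325, limma with Benjamini-Hochberg). Both differences were known when the ratio was formed. The sign of the ratio was therefore not a new result, and its p is not independent of those differences.

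The ratios to the other germ cell genes did not pass. For DDX4, an RNA helicase of germ cells, the ratio differed by 0.05 on the log2 scale (exact permutation p = 0.740), and for MAEL, a protein of the piRNA pathway, by -0.08 (exact permutation p = 0.575). For the acrosomal genes SPACA1 and ZPBP it differed by 0.17 and 0.08 (exact permutation p = 0.132 and 0.816). Ratios to the meiotic genes were spread widely among underfed sheep. That to HORMAD1, a protein of meiotic chromosome axes, differed by 0.73 (exact permutation p = 0.0373, adjusted 0.112), and by 0.25 without low diet sheep 6 and 7 (exact permutation p = 0.161). Those to SYCP1, SYCP2, SYCP3, SPO11 and MEIOB differed by 0.78, 0.53, 0.21, 0.55 and 0.51, with adjusted p from 0.154 to 0.491 by exact permutation. Without low diet sheep 6 and 7 these 5 differences were 0.039, -0.031, -0.012, 0.26 and 0.11.

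Against the other enzymes of sterol synthesis, the ratio of CYP51A1 differed between diets by 0.22 for IDI1, 0.0046 for GGPS1 and 0.64 for MSMO1 (exact permutation p = 0.424, 0.986 and 0.122). These values rested on low diet sheep 6 and 7. Without them the differences were -0.11, -0.27 and 0.12 (exact permutation p = 0.552, 0.0763 and 0.542). In well-fed sheep the log2 ratio of CYP51A1 to MSMO1 was 2.85 ± 0.14 (SD, n = 8), while in underfed sheep it was 3.50 ± 1.09 (SD, n = 8), with 4.63 in sheep 6 and 5.53 in sheep 7. Ratios to the sterol genes that were higher in underfed sheep were lower, with log2 differences of -2.43 for SREBF1, -1.61 for ABCA1, -1.68 for APOE and -1.58 for LCAT (exact permutation, adjusted p from 0.0322 to 0.0414). CYP51A1 and these genes came from the study's lists and differed between diets in opposite directions. The sign of these ratios was therefore set in advance, and their p adds no independent evidence.

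**Figure D4:**
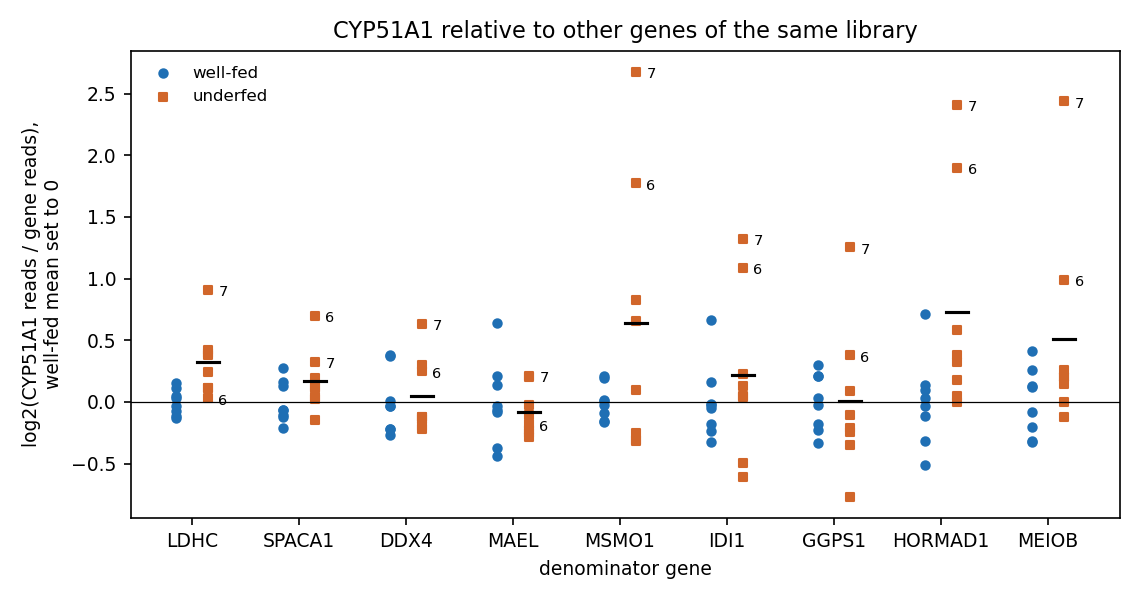
Log2 ratio of CYP51A1 reads to the reads of 9 other genes in the same library, with the well-fed mean of each gene set to 0. Circles are well-fed and squares underfed sheep, lines mark the underfed means, and the numbers mark low diet sheep 6 and 7. The ratio to LDHC is shifted by 0.32 in underfed sheep, while the highest ratios to MSMO1, HORMAD1 and MEIOB are those of sheep 6 and 7.

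The genes whose pattern over the 16 sheep was most like CYP51A1 were C3orf38 (r = 0.99), RAN (0.99), BTBD1 (0.99), PPP1CC (0.99) and DDX20 (0.98), among genes with a symbol. The same 5 genes led with the diet means removed. RAN is the small GTPase of nuclear transport, PPP1CC a catalytic subunit of protein phosphatase that is needed for sperm formation, and DDX20 an RNA helicase of the SMN complex. Farthest from CYP51A1 were IKKBETA (r = -0.99), DCTN1 (-0.98), a subunit of dynactin, and GRAMD1A (-0.98), a carrier of cholesterol from the plasma membrane to the endoplasmic reticulum. GRAMD1A was at 1.26 to 25.1 CPM in well-fed and 7.61 to 46.3 CPM in underfed sheep, and it was higher in underfed sheep by 1.33 on the log2 scale (adjusted p = 0.0599, limma with Benjamini-Hochberg). Across the whole transcriptome 655 genes had an r above 0.9 and 759 an r below -0.9 with CYP51A1, so an r beyond 0.9 in size was common. An r near -0.98 was not, since 4 of the 11147 other genes had a lower r than SREBF1.

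CYP51A1 was compared with 6 traits measured on the same sheep, over 23 relations in all. Over 16 sheep it rose with testis weight (r = 0.57, permutation p = 0.0205, rho 0.53, permutation p = 0.0381) and with the volume of the seminiferous epithelium (r = 0.57, permutation p = 0.0216, rho 0.54, permutation p = 0.0333). Neither passed after adjustment over the 23 relations (adjusted p = 0.249 for r and 0.439 for rho). Dropping the 2 sheep with the most extreme trait values (farthest from the median) gave 0.56 for testis weight and 0.43 for epithelium volume. Without high diet sheep 8, r was 0.47 (permutation p = 0.0811) for testis weight and 0.46 (permutation p = 0.0891) for epithelium volume.

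With the diet means removed, r was 0.28 for testis weight (permutation p = 0.270) and 0.22 for epithelium volume (permutation p = 0.420). Within well-fed sheep the values were 0.64 (exact permutation p = 0.0878) and 0.51 (exact permutation p = 0.191). Within underfed sheep they were 0.04 (exact permutation p = 0.932) and -0.11 (exact permutation p = 0.807). The values within the 8 well-fed sheep were close in size to those over all sheep, and those within the 8 underfed sheep were near 0. In the fit across all genes, the slope of CYP51A1 on testis weight was 0.35 on the log2 scale per SD (SE 0.13, adjusted p = 0.106, limma with Benjamini-Hochberg) without diet and 0.19 (SE 0.17, unadjusted p = 0.281 by limma) with diet as a covariate. Testis weight alone was related to 10.8% of genes and epithelium volume to 7.26%. With diet in the fit, 1 gene (0.00897%) passed for testis weight. The difference in slope between diets did not pass for CYP51A1 (-0.67 per SD, unadjusted p = 0.0886, adjusted p = 0.276, limma) or for any of the 11148 genes, of which 2392 had an unadjusted p under 0.05. The trait fits were run with limma and no other tool.

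Sperm number per testis had r = 0.39 with CYP51A1 over 16 sheep (permutation p = 0.137, rho 0.44, permutation p = 0.0890) and tubule diameter 0.40 (permutation p = 0.126, rho 0.41, permutation p = 0.115). The sperm number relation depended on low diet sheep 2, without which r was 0.61 (permutation p = 0.0174). Dropping the 2 sheep most extreme for the trait gave 0.54 for sperm number and 0.34 for tubule diameter. Within diets, r for sperm number was 0.55 among the well-fed and 0.06 among the underfed (exact permutation p = 0.156 and 0.895), and for tubule diameter -0.04 and -0.15 (exact permutation p = 0.933 and 0.713). The count of apoptotic germ cells per tubule gave r = -0.32 over all sheep (permutation p = 0.213, rho -0.36, permutation p = 0.172), 0.60 among the well-fed and -0.10 among the underfed (exact permutation p = 0.115 and 0.836), and -0.51 with the 2 most extreme sheep dropped. The change in scrotal circumference did not overlap between diets, so no pooled r is given. Within diets it was -0.09 and 0.36 (exact permutation p = 0.826 and 0.408). Every adjusted p over these relations was 0.249 or more.

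**Figure D5:**
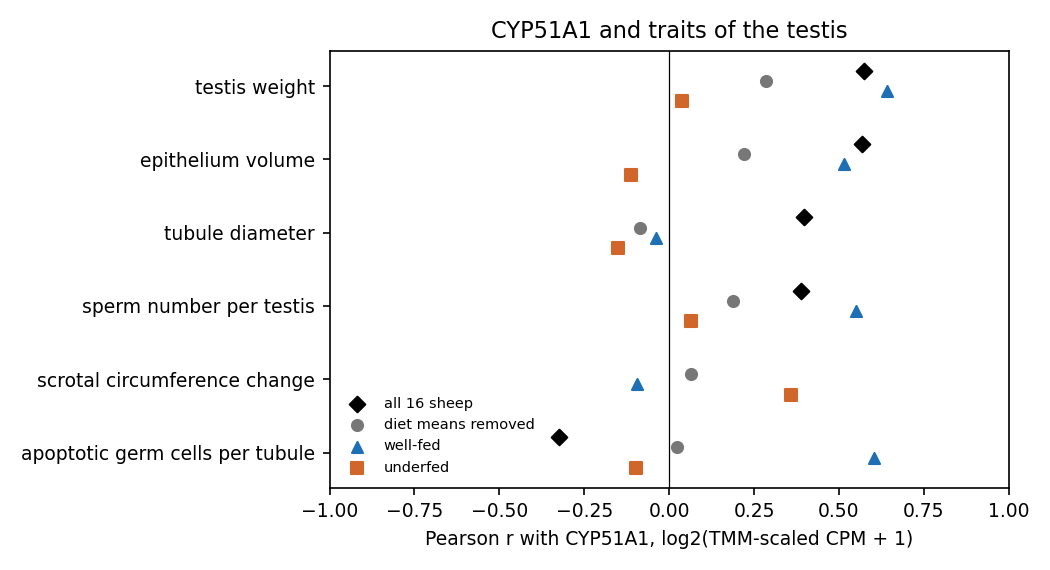
Pearson's r between CYP51A1, as log2(TMM-scaled CPM + 1), and 6 traits of the sheep. Diamonds are all 16 sheep, circles all sheep with the diet means removed, triangles the 8 well-fed and squares the 8 underfed sheep. The values near 0.57 for testis weight and epithelium volume fall to 0.28 and 0.22 once the diet means are removed.

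CYP51A1 also moved with measures of the libraries themselves. Its r with the log2 library total was 0.60 (permutation p = 0.0142, rho 0.55, permutation p = 0.0310), 0.63 within well-fed and 0.19 within underfed sheep, and 0.45 with the 2 most extreme sheep dropped. Its r with the TMM factor was -0.85 (permutation p = 7e-05, rho -0.69, permutation p = 0.00391), -0.89 within well-fed and -0.49 within underfed sheep, and -0.65 with the 2 most extreme sheep dropped. Over these 2 relations the adjusted p was 0.0142 and 0.00014 for r and 0.031 and 0.00782 for rho. The scaled level of CYP51A1 has the TMM factor as its divisor, so this relation is in part one of construction. With CPM on library totals alone the diet difference was -0.52 (adjusted p = 0.103, limma with Benjamini-Hochberg), on a scale where the median of all genes was 0.17. The part of library makeup in the difference was not tested.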

How the data were processed

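Testicular RNA of 16 sheep, 8 per diet, was sequenced as paired reads from TruSeq mRNA libraries (named as stranded per the labels). The authors mapped reads to Oar_v3.1 with TopHat2 (version 2.0.10), assigned them to Ensembl genes by htseq-count and deposited CPM values, scaled to the total of each library. The strand setting is not given in the sources used here, so reads of overlapping, antisense or near-identical copies of CYP51A1 could not be told from its own. All deposited CPM values (100% in each library) were whole multiples of 1 read, which gave the read totals. Columns of other series numbered 0.

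Groups came from the sample labels, and traits from the study's trait table by the same sheep names. The gene, lists, tests and alternatives were chosen with earlier results of these data known. A gene was kept if its CPM exceeded 5 in 8 libraries or more. CPM was divided by TMM factors (edgeR 4.0.16), and log2 values with a pseudocount of 1 CPM, on which changes of low genes are understated, were compared with limma 3.58.1 (trend on, R 4.3.3). Adjusted p is by Benjamini-Hochberg over 11148 genes, with a threshold of 0.1. The study's ratio of mean CPM above 1.5 served as a second call rule. Differences are underfed minus well-fed.

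Single values were compared with exact two-sided permutation tests. Correlations were tested two-sided with 100000 resamples over 16 sheep, exactly within a diet, and with 20000 resamples where sheep were left out, with Benjamini-Hochberg adjustment over each family. Ratios used reads with 0.5 added (Python 3.11.15, numpy 2.4.6, scipy 1.17.1, pandas 2.3.3, matplotlib 3.10.9). The p-values measure the spread between these sheep.

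Named were CYP51A1, each measured gene of the sterol lists, the 3 markers with the highest mean CPM of each cell type, and by r with CYP51A1 the 5 highest (also with the diet means removed) and 3 lowest genes. Other P450 genes, TBPL1 and the remaining markers were added with their values known. Symbols came from the study's gene lists, for 1763 of 25197 identifiers. No position or sequence is printed, because no annotation of Oar_v3.1 was used here. The fit was tested on simulated data. Alternatives were library totals, no filter, CPM above 1, pseudocounts of 0.1 and 5 CPM, 3 tests on the recovered reads (edgeR's quasi-likelihood test, limma-voom and DESeq2 1.42.0), a replicate block, a testis weight term, and dropping single sheep. Dropping low diet sheep 6 and 7 together, the lists without high diet sheep 8, and all work on ratios were added after the values were seen.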

Additional observations from a re-analysis of the deposited data

Results flagged for a closer look

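Of 39 named genes in 2 diets, 78 groups in all, 2 held a sheep far from the others of its group by Dixon's criterion on the log2(CPM + 1) scale. Chance alone is set to give this in about 1 in 20 groups. MAEL in low diet sheep 1 was the highest of the underfed group at 586 CPM (TMM-scaled), against a group median of 345 CPM. INHA, a subunit of inhibin from Sertoli cells, was the lowest of the well-fed group in high diet sheep 5 at 4.20 CPM, against a group median of 19.7 CPM. CYP51A1 itself had no such sheep in either diet. Low diet sheep 6 and 7, which were low together for several meiotic genes, cannot be found by a criterion for a lone sheep.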

How the results depend on the processing

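The direction of the CYP51A1 diet difference was the same under every alternative run, and its adjusted p ran from 0.0351 to 0.852. It passed with CPM above 1, with both other pseudocounts, and with edgeR's quasi-likelihood test (-0.75, adjusted p = 0.0667), limma-voom (-0.70, 0.0726) and DESeq2 (-0.74, 0.0370). By limma it missed with library totals (-0.52, adjusted p = 0.103), no filter (-0.69, 0.105) and testis weight as a covariate (-0.43, 0.852), and, at -0.69, it did not meet both criteria. Leaving out 1 sheep at a time gave -0.79 to -0.55 (adjusted p 0.0351 to 0.149, limma), and the call held in 8 of 16 such fits. Without low diet sheep 6 and 7 it was -0.67 (0.144). The exact permutation test of the single value passed under each of its alternatives.

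Same-numbered sheep did not deviate together (correlations -0.63 to 0.70, mean -0.15, above 0.1 in 2 of 8 pairs, and 1 sheep correlated best with its own number). Expression thus gave no sign that the numbers pair the sheep, but 8 pairs cannot exclude it. With the replicate block the CYP51A1 difference was -0.69 (adjusted p = 0.121, limma), 1174 genes were called, and 2 of 4 P450 genes and 4 of 7 spermatocyte genes passed.

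Over all genes, limma called 2396, edgeR 2239, limma-voom 2466 and DESeq2 3112. Leaving out 1 sheep gave 757 (without low diet sheep 6) to 3726 (without low diet sheep 1), leaving out low diet sheep 6 and 7 gave 434, and testis weight as a covariate gave 0, with 544 at an unadjusted p under 0.05.

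For the lists, library totals left 2 of 4 sterol synthesis, 0 of 1 CREM and 1 of 2 spermatid genes, no filter left 0 CREM and 4 spermatocyte genes, and both criteria left 2 sterol synthesis, 0 CREM, 1 spermatid and 0 general germ cell genes. Without high diet sheep 8, limma called 0 sterol synthesis, 0 CREM, 4 spermatocyte, 0 spermatid and 0 general germ cell genes. Without low diet sheep 6 and 7 it called 0 sterol synthesis, 0 sterol regulation, 0 sterol transport, 0 CREM, 0 spermatid and 0 general germ cell genes, 1 P450, 2 spermatocyte, 2 Sertoli and 1 peritubular gene. In both cases each gene of the lists at 0 had an unadjusted p under 0.05 (4 of 4 sterol synthesis, 3 of 3 transport). On 16 sheep edgeR and DESeq2 called every gene of the lists at 0, except that edgeR called 0 of 1 CREM genes. The study had already called these genes on the same libraries, so such calls are not independent of its own.

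With library totals r was 0.49 for testis weight (permutation p = 0.0526) and 0.49 for epithelium volume (0.0547). Leaving out 1 sheep gave 0.47 to 0.71 and 0.46 to 0.65, 0.29 to 0.61 for sperm number, 0.33 to 0.49 for tubule diameter and -0.42 to -0.29 for apoptotic germ cells. Some ratios changed sign. Without low diet sheep 6 and 7 the diet differences of those to IDI1, GGPS1, SYCP2, SYCP3, ZPBP and DDX4 were -0.11, -0.27, -0.031, -0.012, -0.21 and -0.082. By medians, those to GGPS1, ZPBP and DDX4 were -0.16, -0.028 and -0.090. With 1 sheep left out, they ranged from -0.17 to 0.11 for GGPS1, -0.14 to 0.17 for ZPBP, -0.035 to 0.10 for DDX4 and -0.14 to 0.0093 for MAEL.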
